A study of Mus musculus with 8 samples.

Results

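The Tie axis is the endothelial signalling system built from the receptor tyrosine kinases Tie2 (gene Tek) and Tie1, the secreted angiopoietins Angpt1 and Angpt2, the vascular endothelial protein tyrosine phosphatase VE-PTP (gene Ptprb) and the matrix protein Svep1. These 6 genes were taken by name from the 27179 genes of the count table, where each has 1 row under its Entrez Gene identifier. All 6 were above the filter on low counts and were tested.

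RNA was measured by bulk RNA-seq in cells sorted from the lungs of C57BL/6 mice carrying the Eml4-Alk rearrangement, a model of non-small-cell lung cancer in which an adenovirus delivers Cas9 and guide RNAs to the lung. The mice were 18 to 22 weeks old and 11 to 12 weeks past tumor induction. All of them had received 4.5 nmol of QZ1-(PEG2K), a quenched Cy5 probe that fluoresces once its peptide linker is cut by proteases, by tail vein 2 h before the lungs were taken. Live, non-hematopoietic nucleated cells were then separated by probe signal into QZ1-hi (4 libraries, labeled QZ+) and QZ1-lo (4 libraries, labeled QZ-). Both populations thus came from mice that share the induced rearrangement, the virus and the probe. Which of the sorted cells carry the rearrangement was not tested, and the sort did not separate tumor from surrounding lung. The paper's methods describe dissecting tumors from the rest of the lung before dissociation, with tumors and surrounding tissue kept. They do not say which of these the libraries came from. No library of healthy lung was compared, and the labels do not say which libraries came from the same mouse. P values therefore measure the spread between these libraries.

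In the known pathway, Angpt1 is made mainly by cells around vessels and activates Tie2 on endothelial cells, which stabilizes junctions and supports survival. Angpt2 is stored and released by endothelial cells and can weaken or replace that signal, depending on context. Tie1 has no well-established angiopoietin of its own and modulates Tie2 in a shared complex. VE-PTP removes phosphate from Tie2 and is also a partner of VE-cadherin, and Svep1, also called polydom, is needed for lymphatic vessel remodeling and has been described as a ligand of Tie1. The comparison below addresses whether the cells with high QZ1 signal carried more or less of the transcripts of this system than the cells with low signal.

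The libraries held 18380918 to 26847938 counts. Mitochondrial ribosomal RNA took up 39.5 to 58.4% of the counts in QZ1-hi and 30.2 to 47.3% in QZ1-lo, which left between 8749446 and 16389316 counts outside mitochondrial and ribosomal RNA genes. Levels are given as CPM (counts scaled to library size after TMM), and a level of 3 counts corresponded to 0.0894 to 0.179 CPM (counting error only). Calls were made at an adjusted p under 0.05 by the quasi-likelihood test of edgeR over 15583 genes, and by this measure 9.88% of genes were higher and 8.21% lower in QZ1-hi. With scaling by library size only, the numbers of genes called higher and lower moved from 1540 and 1280 to 883 and 2509, and the median over all genes moved from a log2 fold change of 0.02 to -0.44.

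All 6 genes of the Tie axis were called higher in QZ1-hi, against the 9.88% of all genes called in that direction. For each of the 6, every QZ1-hi library lay above every QZ1-lo library, a pattern seen in 11.9% of the genes tested. Fold changes ran from 6.26-fold for Angpt1 to 13.9-fold for Tek. The calls held under all scalings, including library size only. Tek, Angpt1 and Angpt2 are among the vascular genes that the study itself picked from these libraries. All 6 genes were chosen with earlier results of these data known. Neither their direction nor the contrast with the 9.88% of all genes is therefore independent of that choice.

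Tek (Entrez Gene 21687; chromosome 4, 94739086 to 94874976, plus strand, GRCm38) encodes Tie2, the receptor that angiopoietins bind. Its level was 92.0, 76.3, 164 and 73.3 CPM in the 4 QZ1-hi libraries and 5.57, 10, 11.1 and 2.58 CPM in the 4 QZ1-lo libraries. The lowest QZ1-hi library was 6.58 times as high as the highest QZ1-lo library, the widest gap among the 6 genes. The means were 101 ± 42.7 and 7.32 ± 3.97 CPM (SD, n = 4 each), a log2 difference of 3.79 (edgeR: SE 0.43, adjusted p = 0.000298) that ranked 85th of all genes tested.

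Tie1 (Entrez Gene 21846; chromosome 4, 118471191 to 118489849, minus strand), the second receptor of the family, was at 83.0, 45.9, 125 and 47.9 CPM in QZ1-hi and at 3.57, 6.46, 10.4 and 3.31 CPM in QZ1-lo. The libraries with the most Tek in each population, 4595 in QZ1-hi and 4596 in QZ1-lo, also had the most Tie1. Its means were 75.4 ± 37.0 CPM and 5.93 ± 3.29 CPM (SD, n = 4 each), and the log2 fold change in edgeR was 3.67 (SE 0.43, adjusted p = 0.000364). This 12.7-fold difference lay less than 1 SE from that of Tek.

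Ptprb (Entrez Gene 19263; chromosome 10, 116275502 to 116389538, plus strand) encodes VE-PTP, the phosphatase that acts on Tie2, and had the highest counts of the 6 genes. It was at 404, 326, 560 and 320 CPM in QZ1-hi and at 19.0, 35.2, 76.1 and 17.1 CPM in QZ1-lo. The QZ1-hi libraries spanned 1.75-fold and the QZ1-lo libraries 4.45-fold, so the spread was wider in the low population. The means were 402 ± 112 CPM and 36.8 ± 27.4 CPM (SD, n = 4 each) with a log2 fold change in edgeR of 3.45 (SE 0.45, adjusted p = 0.000561). Of the other phosphatases of its receptor type, Ptprj had a value of -0.33 on the same scale (SE 0.15, adjusted p = 0.180), and neither of the 2 genes tested of this group of 4 was called in either direction.

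The ligands were much less abundant than the receptors. Angpt1 (Entrez Gene 11600; chromosome 15, 42424667 to 42676977, minus strand), the activating ligand, was at 3.85, 4.15, 8.38 and 3.69 CPM in QZ1-hi and at 0.328, 0.610, 1.88 and 0.368 CPM in QZ1-lo. These levels rested on 62 to 145 counts per QZ1-hi library and 9 to 52 per QZ1-lo library. Library 4596 alone held 52 of the 87 counts of QZ1-lo, and the gap between the populations, 1.96-fold, was the narrowest of the 6 genes. The edgeR log2 fold change was 2.65 (SE 0.59, adjusted p = 0.00960), and 3.52 (adjusted p = 0.00111) without library 4596. A gene on the opposite strand, Gm17473, overlaps 14.2% of the exonic bases of Angpt1, and the strand setting of the counting is not given in the sources used here.

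Angpt2 (Entrez Gene 11601; chromosome 8, 18690263 to 18741562, minus strand), the context-dependent ligand, was at 5.29, 3.41, 8.38 and 3.87 CPM in QZ1-hi and at 1.04, 0.244, 0.687 and 0.736 CPM in QZ1-lo. It had 404 counts over QZ1-hi and 78 over QZ1-lo. Unlike the other members, it was highest in QZ1-lo in library 4592 and not in 4596 or 4594. The edgeR log2 fold change was 2.93 (SE 0.49, adjusted p = 0.00191), a 7.61-fold difference. With at least 10 counts required in every library, neither ligand was tested.

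Svep1 (Entrez Gene 64817; chromosome 4, 58042796 to 58206596, minus strand), the large matrix protein, was at 15.4, 32.1, 35.1 and 20.3 CPM in QZ1-hi and at 2.35, 2.72, 1.95 and 0.573 CPM in QZ1-lo. Its lowest QZ1-hi library was 4591, which ranked second in QZ1-hi for Tek, Tie1, Ptprb and Angpt2. The edgeR log2 fold change was 3.75 (SE 0.42, adjusted p = 0.000293), a 13.4-fold difference. Gm26889, on the opposite strand, overlaps 13.9% of its exonic bases.

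**Figure D1:**
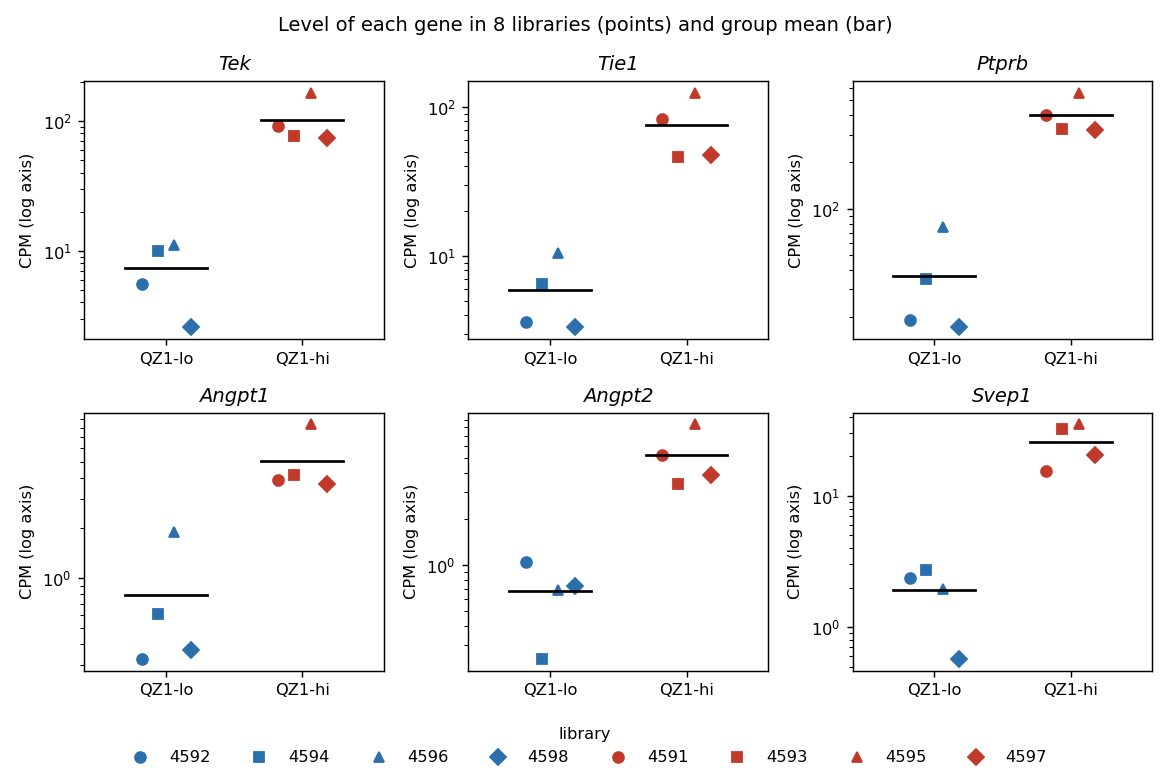
CPM (log axis) of Tek, Tie1, Ptprb, Angpt1, Angpt2 and Svep1 in the 4 QZ1-lo libraries (blue) and the 4 QZ1-hi libraries (red), 1 panel per gene with its own scale; symbols mark libraries and bars the group means. In every panel the red points sit above the blue points, with the smallest gap for Angpt1, where library 4596 reached 1.88 CPM.

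Levels of different genes were compared after division by exon length, as RPKM (CPM per kilobase of merged exons in GENCODE M21). In QZ1-hi the order was Ptprb (mean 30.2), Tek (21.5), Tie1 (15.3), Svep1 (1.596), Angpt2 (1.42) and Angpt1 (0.964 RPKM). Ptprb was above Tek and Tek above Tie1 in 4 of 4 QZ1-hi libraries, by 1.40-fold each on the means. Svep1 and Angpt2 could not be ordered, since Svep1 was higher in 2 of 4 libraries. In QZ1-lo the first 3 places were the same in 3 of 4 libraries, with means of 2.76, 1.55 and 1.21 RPKM, and in library 4598 Tie1 was above Tek. The 3 least abundant genes, at 0.118 to 0.184 RPKM in QZ1-lo, changed places from library to library. Thus the receptor and phosphatase transcripts exceeded those of the ligands per length in all 8 libraries.

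RefSeq promoter sequence of GRCm38.p6 was available for 3 of the 6 genes and was read for letters that could be shared by genes moving together. The ETS family of transcription factors, known for its part in endothelial gene expression, recognizes a GGAA core. In the 250 bases before the start site, GGAA on either strand occurred 2 times for Tek, 7 times for Tie1 and 6 times for Svep1. Of 32851 mouse promoters of this length, 93.4% held at least 1 match, with a median of 3. At least as many matches as Tie1 were held by 3.82%, as Svep1 by 8.69% and as Tek by 76.8%. The stretch of 30 bases with the most matches is shown for each gene, 5′ to 3′ on the gene's strand, with GGAA and its reverse complement TTCC in capitals.
Tie1: gcGGAAgccactggcTTCCtccctTTCCtg
Svep1: gagaggagtgGGAAaaGGAAggagaggaca
Tek: gatacccctattgTTCCtgaaaatgctgac
These lie at chr4:118490053-118490082 (minus strand), chr4:58206692-58206721 (minus strand) and chr4:94739217-94739246 (plus strand). The longer form AGGAAG, which contains GGAA and is therefore counted in both, was found 1 time for Tie1, 2 times for Svep1 and 0 times for Tek, against 29.5% of all promoters with a match. The forkhead motif GTAAACA and the GATA motif AGATAA, searched on both strands, had 0 matches in the 3 windows and were present in 3.17% and 9.99% of all promoters. Some transcript models of RefSeq or GENCODE begin further upstream and cover 203 bases of the Tek window, 212 of the Tie1 window and all 250 of the Svep1 window, so the windows are promoters only with respect to the start site used in the promoter table. A match of letters does not show a binding site.

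The transcripts that define the cell types of the vessel wall differed between the populations as well. All 10 endothelial markers were called higher in QZ1-hi (median log2 fold change 3.29), beside 9.88% of all genes. Among them was Cdh5, which encodes VE-cadherin, at 3.54 (SE 0.50, adjusted p = 0.000837, edgeR). The summed level of the 10 markers was 942 to 2197 CPM in QZ1-hi and 84.0 to 318 CPM in QZ1-lo, highest there in library 4596. Of 7 pericyte markers 3 were called higher (median 2.31, Pdgfrb at 2.76), with sums of 55.0 to 85.4 CPM against 9.77 to 26.9 CPM. Of 7 fibroblast markers 6 were called higher (median 3.38, Pdgfra at 3.38), with sums of 1573 to 3039 CPM against 38.7 to 354 CPM. In bulk samples, fewer cells of a type and less RNA per cell cannot be told apart. The part of cell makeup in the higher levels of the 6 genes was not tested beyond the ratios to these markers given below.

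Markers of other cells also moved, where 9.88% of all genes were called higher and 8.21% lower. Lymphatic endothelial markers were called higher for 5 of 6 genes (median 3.62, Lyve1 at 3.93), with sums of 147 to 243 CPM against 30.4 to 52.9 CPM. Prox1, the defining lymphatic transcription factor, was at 1.76 (SE 0.66, adjusted p = 0.0946, edgeR). It was called without library 4596 (2.58) and also under some other tests, scalings or filters with all libraries kept. Mesothelial markers were called higher for 4 of 4 genes (median 2.94), smooth muscle markers for 2 of 5 with 1 lower (median 1.45), and megakaryocyte and platelet markers for 3 of 4 (median 1.61, sums of 17.2 to 35.2 against 3.78 to 8.86 CPM). Epithelial markers were called lower for 7 of 9 genes (median -1.34, Epcam at -1.17) and higher for Sftpc, while none of 5 leukocyte markers (median 0.06) and none of 4 red cell markers (median -1.55) was called. Leukocyte RNA was nevertheless present after the sort for non-hematopoietic cells. The listed leukocyte markers summed to 2887 to 6228 CPM in QZ1-hi and 2087 to 4112 CPM in QZ1-lo. Lyz2, at means of 3598 and 2532 CPM, made up most of these sums, so they rest largely on that gene. Ptprc was at means of 130 and 125 CPM. No marker of these lists was at 0 in all 8 libraries. Their part in the levels of the Tie axis was not tested.

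Within libraries, the members were set against each other and against the markers of the cell type known to express them, which asks whether they differed by more or less than those markers. The values are differences of log2 ratios, QZ1-hi minus QZ1-lo, tested by two-sided exact permutation over the 70 assignments of 4 and 4 libraries (smallest possible p 0.0286), with adjustment over the 9 ratios. With the mean of a marker list as reference, the populations overlapped in all 9 ratios. The ratio of the ligands, Angpt2 to Angpt1, differed by 0.09 (SE 0.71, 95% interval -1.73 to 1.80, exact p = 0.886, adjusted 0.914). In QZ1-hi this log2 ratio lay between -0.28 and 0.45, and in QZ1-lo between -1.35 and 1.45. The interval thus leaves room for a shift of 1.73 log2 units toward Angpt1 or of 1.80 toward Angpt2 in QZ1-hi.

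The receptor ratios were tighter. Tie1 to Tek differed by -0.22 (SE 0.27, interval -1.08 to 0.48, exact p = 0.457) and Ptprb to Tek by -0.22 (SE 0.29, interval -0.995 to 0.375, exact p = 0.457), both with an adjusted p of 0.588. Both intervals include 0 and reach no further from it than 1.08 log2 units, where the genes themselves differed by 3.45 to 3.79. Relative to the mean of the 10 endothelial markers, Tek differed by 0.52 (SE 0.31, interval -0.565 to 1.175, exact p = 0.257). Tie1 differed by 0.30 (SE 0.18, interval -0.16 to 0.81, exact p = 0.200) and Ptprb by 0.30 (SE 0.18, interval -0.235 to 0.88, exact p = 0.171). Angpt2 differed from the same markers by -0.53 (SE 0.63, interval -1.875 to 0.825, exact p = 0.429). All 4 had an adjusted p of 0.588. Set against the median of the endothelial markers instead, the differences were 1.04 for Tek and 0.81 for Tie1 and Ptprb, with adjusted exact p values of 0.171, 0.129 and 0.129, and -0.02 for Angpt2 (adjusted exact p = 0.943). For Tie1 and Ptprb the exact p before adjustment was the smallest possible, 0.0286. Against the median, every QZ1-hi library thus lay above every QZ1-lo library for the ratios of Tie1 and Ptprb. This median was taken over marker levels within each library, so different markers can set it in each population. The median log2 fold change of the 10 markers themselves was 3.29, beside 3.67 for Tie1 and 3.45 for Ptprb. The larger differences against the median therefore do not show that these genes rose beyond the markers.

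Angpt1, set against the pericyte markers, differed by 0.39 (SE 0.41, interval -0.88 to 1.46, exact p = 0.371, adjusted 0.588). It was 0.15 against the median of these markers and 0.74 without library 4596. Svep1, set against the fibroblast markers, differed by 0.05 (SE 0.48, interval -1.20 to 1.36, exact p = 0.914, adjusted 0.914). None of the 9 ratios passed the threshold, and the intervals leave room for differences of 0.375 to 1.80 log2 units in the direction of QZ1-hi. A single ratio at the smallest possible exact p, 0.0286, could not pass after adjustment. Most of the 9 would have to reach that value together, so the lack of a call decides little.

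**Figure D2:**
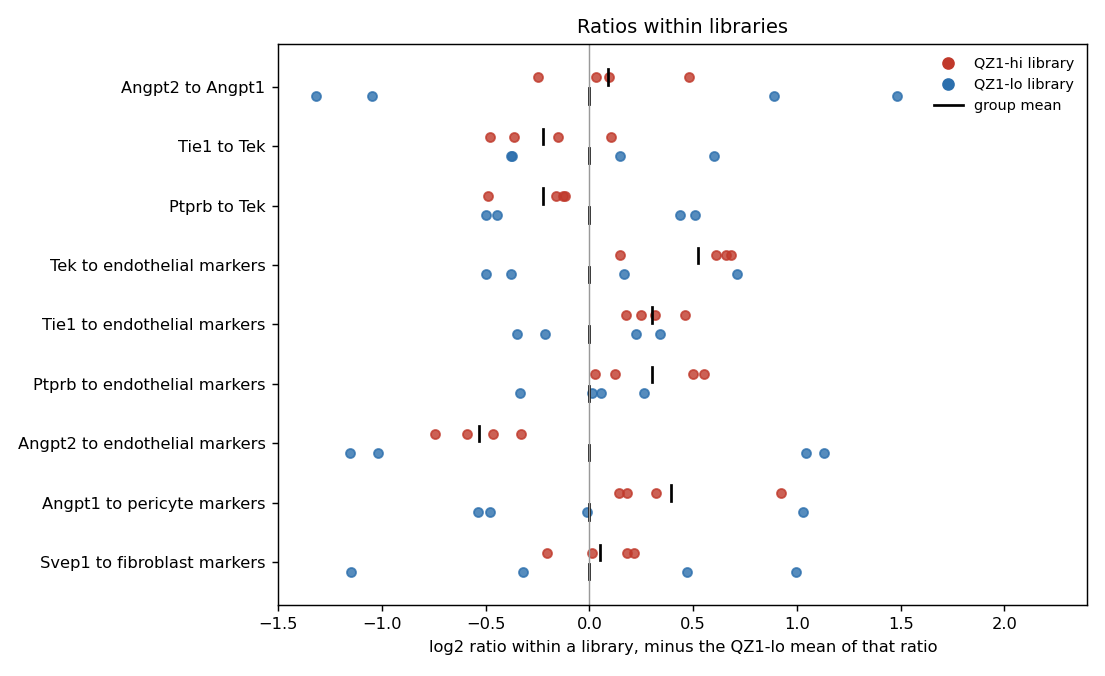
Log2 ratios within each library, each shown minus the QZ1-lo mean of that ratio, for 9 ratios of Tie axis genes to each other or to the mean of a marker list; red points are QZ1-hi libraries, blue points QZ1-lo libraries, and black bars group means. Red and blue points overlap in every row, and the blue points spread most for Angpt2 to Angpt1, from -1.35 to 1.45 before centering.

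The order of the libraries inside a population differed between the genes and matched different marker lists, which is given as a description over 4 libraries. In QZ1-hi, Tek and Ptprb ordered the libraries 4595, 4591, 4593 and 4597 from high to low, as the mean of the endothelial markers did. Tie1 and Angpt2 had the order 4595, 4591, 4597 and 4593, that of the lymphatic endothelial markers. Angpt1 had the order 4595, 4593, 4591 and 4597, that of the pericyte markers, and Svep1 the order 4595, 4593, 4597 and 4591, that of the fibroblast markers. In QZ1-lo, Tek, Tie1 and Ptprb had the order 4596, 4594, 4592 and 4598, which the endothelial, lymphatic endothelial, fibroblast and epithelial markers shared. Svep1 had the order 4594, 4592, 4596 and 4598 there, that of the mesothelial and smooth muscle markers, while the orders of Angpt1 and Angpt2 matched none of the 10 marker lists. Over all 8 libraries the match of profiles was not the same as that of the orders. By the root mean square difference of centered log2 profiles, Angpt1 was nearer to the lymphatic (0.374) and endothelial (0.440) markers than to the pericyte markers (0.534). Tek was about as near to the fibroblast (0.446) as to the endothelial markers (0.457), and Svep1 was nearest to the fibroblast markers (0.586). Library 4595 was highest in QZ1-hi for all 6 genes.

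Likeness to other genes was measured as the root mean square difference, in log2 units over the 8 libraries, between profiles centered on their own mean, and the median of this measure over all genes ran from 1.57 to 2.09 for the 6 members. Tek was closest to Rhoj (0.149), Aqp1 (0.197), a water channel, and Ism1 (0.269). Tie1 was closest to Vwf (0.183), which encodes von Willebrand factor, Sema3g (0.196) and Gpihbp1 (0.210), the capillary anchor of lipoprotein lipase. Ptprb was closest to Stmn2 (0.165), Lama4 (0.168), a laminin chain of vessel basement membrane, and Clec1a (0.168).

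The ligands had other neighbors. Angpt1 was closest to Palmd (0.208), Arap3 (0.234) and Mapt (0.253), and Angpt2 to Apold1 (0.317), Plod2 (0.335), a lysyl hydroxylase of collagen, and Bvht (0.351). Svep1 was closest to Clec11a (0.202), a secreted growth factor, C1s2 (0.330), a complement protease, and Sulf1 (0.381), a heparan sulfate sulfatase. The log2 fold changes of these 18 neighbors ran from 2.44 for Plod2 to 3.99 for Ism1, and all 18 were called higher. The choice by likeness of profile largely fixed this in advance, since the profiles hold the difference between the populations. Among the members themselves, Tie1 and Ptprb were closest (0.249), followed by Tek with Tie1 (0.347) and Tek with Ptprb (0.369), and Angpt2 and Svep1 were farthest apart (1.07). All of these profiles share the same 8 libraries and the difference between the populations.

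The wider pathway was taken as 49 genes in 7 lists, of which 45 were tested. Of these, 14 were called higher and 4 lower, beside 9.88% and 8.21% of all genes tested. The median log2 fold change was 0.22 against 0.02 for all genes, and with scaling by library size only the split was 9 higher and 7 lower. The angiopoietin family outside the members, secreted proteins with a related fold, had 3 of 6 tested genes called higher and 0 lower (median 1.58). Angptl7 was at 2.93 (SE 0.50, adjusted p = 0.00224), Angptl2 at 2.15 (SE 0.34, adjusted p = 0.00134) and Angptl4, an inhibitor of lipoprotein lipase, at 0.67 (SE 0.19, adjusted p = 0.0315). Angptl4 was not called with library size only or in 6 of 8 fits with a library left out. Angptl1 was at 2.46 with an SE of 1.43 (adjusted p = 0.299), and Angpt4, the third ligand of Tie2, had 25 counts over QZ1-hi and 6 over QZ1-lo and was not tested.

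The proteins that carry the signal inside the cell did not move together. Of 19 transducers 4 were called higher and 3 lower (median 0.04), beside 9.88% and 8.21% of all genes. Nos3, the endothelial nitric oxide synthase, was at 3.01 (SE 0.44, adjusted p = 0.000964). Pik3r1, a regulatory subunit of PI3-kinase, rose by 0.61, and the adaptor Nck1 by 0.72. Neither of these calls held with library size only (log2 fold changes 0.14 and 0.25). The PI3-kinase subunit Pik3cb, the adaptor Grb7 and the kinase Pak1 were lower, at -0.71, -0.70 and -0.67. With 1 library left out, the call was lost for Nck1 in 3 of 8 fits, for Grb7 in 5 and for Pak1 in 4. Foxo1, the transcription factor that Tie2 signaling keeps out of the nucleus, was at 32.9 CPM in both populations, with a log2 fold change under 0.01 in size (SE 0.13, adjusted p = 0.996).

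Genes known to respond to Tie2 or FOXO1 signaling were called higher for 3 of 5 (median 1.73), beside 9.88% of all genes. The Notch ligand Dll4 was at 3.29 (SE 0.44, adjusted p = 0.000629), the peptide apelin, Apln, at 2.06 (SE 0.54, adjusted p = 0.0206) and the flow-responsive factor Klf2 at 1.73 (SE 0.22, adjusted p = 0.000480). For Apln the highest QZ1-lo library, 4596 at 8.32 CPM, was above the lowest QZ1-hi library at 6.25 CPM, and its call was lost in 3 of 8 fits with a library left out. Of 7 other receptors of angiopoietins or Svep1, 4 were higher and 1 lower (median 0.79), beside 9.88% and 8.21% of all genes. Pear1, a receptor reported to bind Svep1, was at 2.11 (SE 0.31), and the integrin chains Itga5, Itgb5 and Itgb3 were at 1.61, 0.83 and 0.79. With library size only, Itgb5 and Itgb3 were not called (0.35 and 0.34), and Itgb3 also lost its call in 5 of 8 fits with a library left out. The integrin chain Itgav was lower, at -1.01 (SE 0.15, adjusted p = 0.000876), and Itga9, an integrin chain that binds Svep1, was at -0.07 (SE 0.16, adjusted p = 0.828).

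Neither of the 2 tested enzymes known to shed Tie receptors was called, and Lect2, a liver-derived ligand of Tie1, had 0 counts in all 8 libraries. Of the 4 catenins listed for the VE-cadherin complex, none was called, with log2 fold changes between -0.36 and 0.35, where Cdh5 was at 3.54. Which cells these catenin transcripts came from was not tested.

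**Figure D3:**
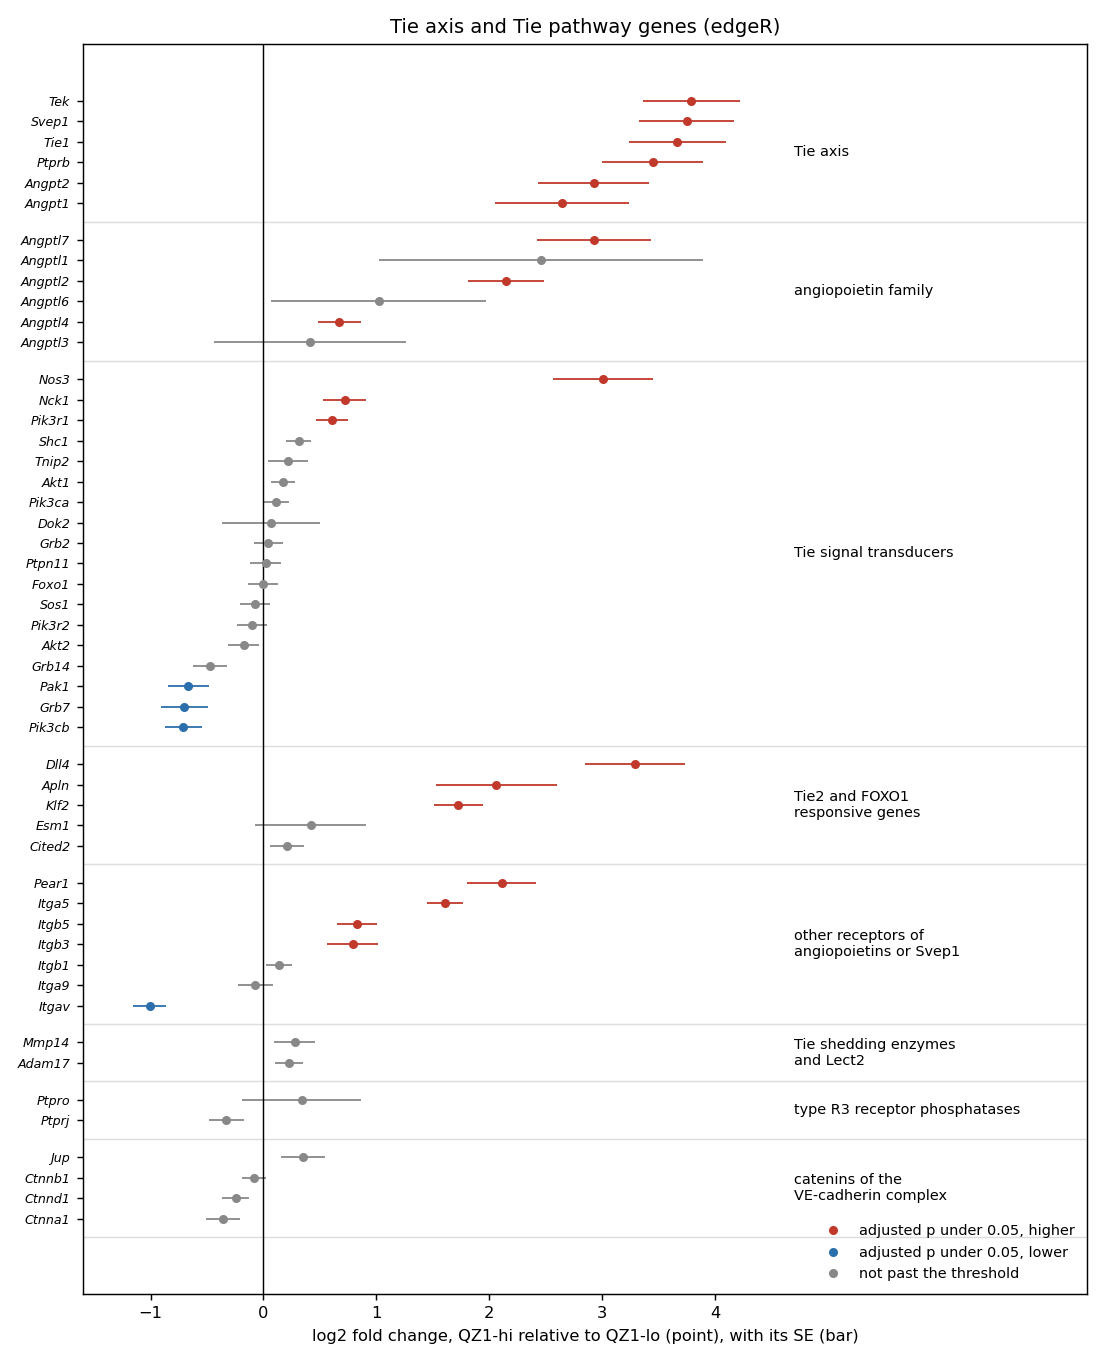
Log2 fold change of QZ1-hi relative to QZ1-lo (point) with its SE (bar) for the 6 Tie axis genes and 44 tested genes of the 7 pathway lists, in red where called higher, blue where called lower and gray where not past the threshold. The Tie axis genes lie between 2.65 and 3.79, while the transducers center on 0.04 with Nos3 at 3.01 as the far point.

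The fold changes of the 6 genes were recomputed with other tests, scalings and filters and with each library left out. Across these fits the log2 fold change ran from 3.39 to 4.07 for Tek, from 3.29 to 4.09 for Tie1, from 3.01 to 4.08 for Ptprb, from 2.19 to 3.52 for Angpt1, from 2.47 to 3.22 for Angpt2 and from 3.28 to 3.96 for Svep1. All stayed past the threshold wherever the gene was tested, with the largest adjusted p, 0.0362, for Angpt1. Without QZ1-lo library 4596, which had the highest endothelial markers of its population, the values were 4.07 for Tek, 4.09 for Tie1, 4.08 for Ptprb and 3.52 for Angpt1, while Angpt2 at 2.93 and Svep1 at 3.76 stayed close to their values with all libraries.

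**Figure D4:**
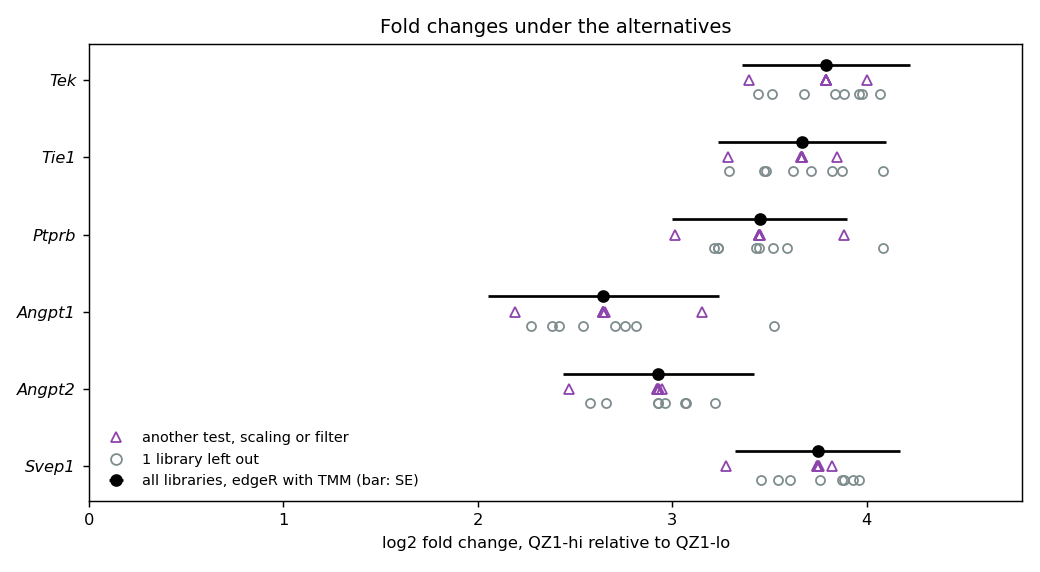
Log2 fold change of QZ1-hi relative to QZ1-lo for the 6 genes with all libraries in edgeR (black, bar: SE), under another test, scaling or filter (triangles) and with 1 library left out (open circles). All symbols lie above 2.19, and the rightmost open circles of Tek, Tie1, Ptprb and Angpt1 are the fits without library 4596.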

How the data were processed

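The authors counted reads of stranded total RNA libraries per gene with Rsubread, and the deposited values are raw counts, not normalized, listed by Entrez Gene identifier (mm10 per the submitters' processing notes; the aligner, annotation and strand setting are not given in the sources used here). Their own comparison used DESeq2. Of 27179 identifiers, 25293 were given a symbol (RefSeq and GENCODE M21) and 1886 were not.

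Counts were fitted with edgeR 4.0.16 (R 4.3.3) with TMM scaling, filterByExpr (minimum count 10, minimum total 15), the quasi-likelihood test between 4 libraries of QZ1-hi and 4 of QZ1-lo without covariate, Benjamini-Hochberg adjustment over 15583 genes, threshold 0.05 (common dispersion 0.113). Each SE was obtained from the size of the fold change (log2) over the root of its F statistic. Ratios used log2 CPM with a prior count of 2, exact permutation tests in Python 3.11.15 with scipy 1.17.1, and 95% intervals by inversion of that test. Alternatives were DESeq2 1.42.0, limma 3.58.1 (voom, quality weights), other scalings and filters, robust shrinkage, removal of 48 mitochondrial and ribosomal RNA genes, and each library left out. The procedure was tested on simulated data. The 6 genes and all lists were chosen with earlier results of these data known. Genes named are the 6, list members, and the 3 nearest profiles per gene. Replicate libraries differed by more than counting noise (smallest chi-square per degree of freedom 32.9). Promoters were matched for Tek, Tie1 and Svep1, and not for Angpt1, Angpt2 and Ptprb. 1 gene of the transducer list is counted there but not reported by name.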

Additional observations from a re-analysis of the deposited data

Results flagged for a closer look

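In 126 groups of 4 libraries, 7 had a highest or lowest library that stood apart from the other 3 by Dixon's criterion, where chance alone gives about 1 in 20. Angpt1 in QZ1-hi was at 8.38 CPM in library 4595 and at 3.69 to 4.15 CPM in the others. The log2 ratio of Ptprb to Tek in QZ1-hi was 1.77 in library 4595 and 2.09 to 2.13 in the others. The log2 ratio of Tek to the endothelial markers in QZ1-hi was -0.34 in library 4591 and 0.13 to 0.20 in the others. In QZ1-lo, Clec11a was at 0.164 CPM in library 4598 against 0.685 to 0.732 CPM, and Angptl1 at 1.08 CPM in library 4596 against 0 to 0.179 CPM. Itgav in QZ1-lo was at 218 CPM in library 4592 against 151 to 162 CPM, and Itga9 in QZ1-hi at 129.9 CPM in library 4591 against 87.6 to 91.4 CPM.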

How the results depend on the processing

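No paired analysis was possible because the labels give no mouse, batch or replicate number that links a QZ1-hi to a QZ1-lo library. The direction and call of all 6 Tie axis genes were the same in every fit in which the gene was tested. Angpt1 and Angpt2 could not be tested with at least 10 counts in every library. Scaling by library size only moved the genes called higher from 1540 to 883 and lower from 1280 to 2509, and the pathway genes called higher from 14 to 9 and lower from 4 to 7. With 1 library left out, 2 to 4 pathway genes were called lower (2 without library 4591, 4595 or 4592). The Angpt2 to Angpt1 difference, 0.09 with all libraries, ran from -0.35 to 0.58 with 1 left out and was negative without 4591, 4594 or 4596. The difference of Svep1 to fibroblast markers, 0.05, was -0.051 with a prior count of 0.5, -0.23 against the marker median and from -0.33 to 0.38 with 1 library left out. The other ratios kept their sign with 1 library left out, from -0.35 to -0.02 for Tie1 to Tek, -0.39 to -0.05 for Ptprb to Tek, 0.36 to 0.76 for Tek to endothelial markers, 0.19 to 0.41 for Tie1 to endothelial markers, 0.19 to 0.39 for Ptprb to endothelial markers, -0.92 to -0.15 for Angpt2 to endothelial markers and 0.21 to 0.74 for Angpt1 to pericyte markers. Foxo1 ran from -0.073 to 0.073 and Itga9 from -0.23 to 0.016 with 1 left out. Over 764 fits of the other 48 named genes, 709 kept direction and call, 40 (10 genes) lost the call, 9 (Grb14, Ptprj, Prox1) gained it and 6 changed sign (Foxo1, Itga9). The cause was not tested. The counts of Angpt1 and Angpt2 in QZ1-lo, 87 and 78 in all, limit what can be said of their balance.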
